A study of Mus musculus with 4 samples.

Results

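The genes described here encode the synaptic vesicle and its release machinery, and the question was where the BRG1/BRM chromatin remodeller lay on them in resting and in depolarized neurons. They were chosen by function, as a fixed list of 48 symbols, but with earlier results of these data known. All 48 were found among the 21887 genes that RefSeq lists as protein-coding on GRCm38.p6. By role they fell into 11 calcium sensors, 12 vesicle proteins, 9 SNARE proteins and SNARE regulators, 11 active zone proteins and 5 endocytic proteins. The cells were wild-type cortical neurons, grown from E16.5 mouse embryos for 6 days in vitro, and the measurement was ChIP-seq with the J1 antibody, which binds both BRG1 and BRM, the ATPases of the BAF remodelling complex. The basal group was kept at the basal KCl level, and the KCl group received 50 mM KCl for 1 h. The depolarized cultures had been given 1 µM TTX, a sodium channel blocker, and 100 µM APV, an NMDA receptor blocker, on day 5, and the labels do not say whether the basal cultures received them. Each group was 1 immunoprecipitated (IP) library with 1 input library, and the labels do not say how many embryos went into a culture.

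At a nerve terminal, transmitter-filled vesicles dock at the active zone, a protein scaffold opposite the receiving cell. There the SNARE proteins of vesicle and plasma membrane zip together, complexins and synaptotagmins hold the assembly until calcium arrives, and fusion follows. The spent membrane is then retrieved by clathrin-dependent endocytosis and refilled. BAF complexes use ATP to move nucleosomes, and neurons assemble a form of the complex with subunits of its own.

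The files hold enriched regions, called islands, each with its IP reads, control reads and fold, the authors' own ratio of IP to control scaled by library size. Intervals in brackets are 95% exact binomial intervals of that fold, which cover counting error only. The basal list had 711 islands and the KCl list 20966, with no fewer than 18 and 20 IP reads in any island. Total read depth is not given in the sources used here. Because each condition has a single IP library, differences between conditions were neither replicated nor tested. Against the labelled cell type, 8 of 10 cortical neuron marker genes had a KCl island within 2 kb of a gene end, as did 2 of 10 interneuron, 4 of 8 astrocyte, 2 of 8 oligodendrocyte and 0 of 8 microglia markers. Of all protein-coding genes, 25.2% had a KCl island within 2 kb of an end. An island is occupancy and not expression.

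After depolarization, BRG1/BRM islands lay at the ends of 26 of the 48 release genes, among them Syt4, Snap25, Vamp2, Cplx1, Cplx2, Slc17a7, Rims2, Pclo and Snap91. This is 54.2% of the list, against 25.2% of all protein-coding genes. With the gene body and 10 kb on either side included, 34 of 48 members (70.8%) had an island, against 38.9% of all genes. In the basal library 0 of 48 members had an island in either region, where 0.411% of all genes had one at an end and 1.68% in the body or within 10 kb. The latter share rose with gene length, from 0.709% up to 20 kb to 5.18% from 100 to 300 kb and 15.4% over 300 kb. Of the members in those last 2 classes, 0 of 13 and 0 of 8 had a basal island there.

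Release genes are long, with a median of 74.0 kb against 17.2 kb for all protein-coding genes, and long genes more often hold an island. Genes of the same length classes as the members had an island at an end in 35.0% of cases and in the body or within 10 kb in 58.5%. Of the 10 members up to 20 kb long, 6 had an island at an end, against 17.5% of all genes of that length. From 20 to 100 kb the count was 7 of 17 members against 30.7%, from 100 to 300 kb it was 7 of 13 against 43.3%, and over 300 kb it was 6 of 8 against 52.6%. Of the 6 islands at short members, those of Syt3, Doc2a, Sv2a and Slc17a7 also lie at an end of another gene. At gene starts, for members with a strand, the count was 2 of 6 up to 20 kb (15.4% of all such genes) and 5 of 6 over 300 kb (47.1%). Over promoter windows it was 0 of 6 for the short members, against 14.4%. In the body or within 10 kb, 6 of the 10 shortest members had an island against 25.7% of genes of that length, and 12 of 13 members of 100 to 300 kb did against 78.2%. The members of 20 to 100 kb were close to all genes of their length, with 8 of 17 (47.1%) against 45.7%. All 8 members over 300 kb had an island there, where 95% of all such genes did.

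By role, the active zone genes had the highest share at gene ends and the calcium sensors the lowest, but each role holds few genes and the order changed with the threshold. With a fold of at least 2 required, the SNARE genes led with 4 of 9 against 3 of 11 active zone genes, where 8.74% of all genes had such an island. At an FDR of at most 1e-05 the counts were 5 of 9 and 6 of 11, against 15.1% of all genes. The counts and length-class shares that follow are without these cuts. At gene ends the counts were 8 of 11 active zone genes, 3 of 5 endocytic genes, 5 of 9 SNARE genes, 6 of 12 vesicle genes and 4 of 11 calcium sensors. All genes of matching length classes gave 44.9% for the active zone genes, 38.3% for the endocytic genes, 30.6% for the SNARE genes, 32.3% for the vesicle genes and 30.2% for the calcium sensors. In the body or within 10 kb, 10 of 11 active zone genes had an island, where 78.5% of all genes in their length classes did, and 5 of 11 calcium sensors had one. For the calcium sensors that is 45.5%, near the 48.8% of all genes in their length classes, which would amount to 5.37 of 11 genes.

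**Figure D1:**
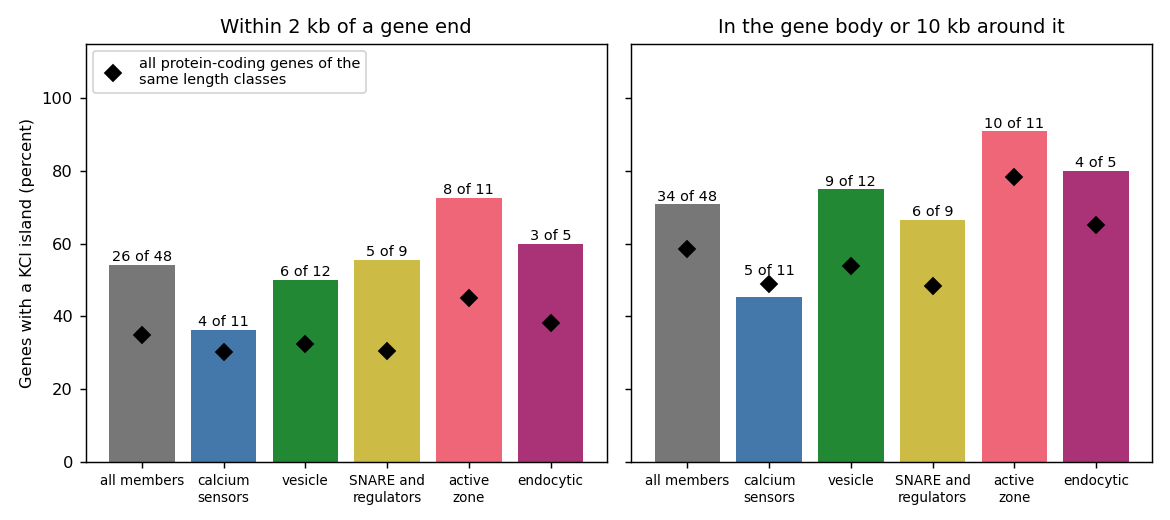
Percent of genes with a KCl island within 2 kb of a gene end (left) and over the gene with 10 kb flanks (right), for all 48 members and for each role, with counts above the bars. Black diamonds give the share of all protein-coding genes in the length classes of that role. Only the bar of the calcium sensors in the right panel (5 of 11) is under its diamond, which amounts to 5.37 genes and so is near it.

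The 26 members held 28 islands at their ends, because Sv2c and Stxbp5 had a pair each. Their folds ran from 1.35 to 3.91 with a median of 1.95, and their widths from 1400 to 6400 bp with a median of 2800 bp. All 4856 KCl islands at gene ends had a median fold of 1.82 and a median width of 2400 bp. For 25 of the 28 member islands (89.3%) the counting interval stayed above 1, against 76.1% of all islands at gene ends. The exceptions were Syt1, Bsn and the weaker island of Stxbp5. Of the 28, 21 lay at the start of a gene, 2 at its far end and 5 at genes whose strand was not used here. By gene, 20 of the 39 members with a strand had an island at the start, against 22.7% of all genes with one. With a fold of at least 2 required, 12 of 48 members had an island at an end (8.74% of all genes) and 25 had one in the body or within 10 kb (21.7%). At an FDR of at most 1e-05 the counts were 20 (15.1%) and 32 (27.9%). These shares are over genes of all lengths, and shares in the members' length classes were not worked out at these thresholds.

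**Figure D2:**
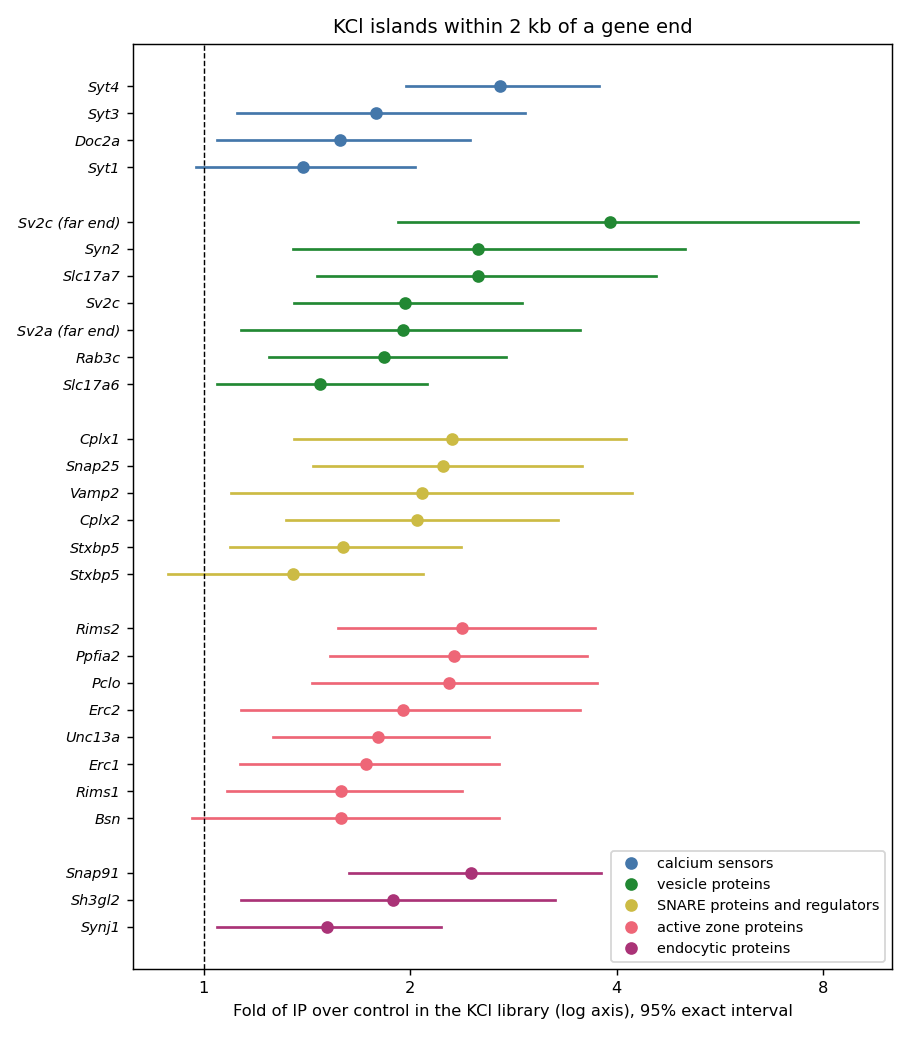
Fold of IP over control reads (log axis) for the 28 KCl islands within 2 kb of an end of 26 members, by role; lines are 95% exact intervals for counting error, and the dashed line marks a fold of 1. The folds lie between 1.35 and 2.70, except the island at the far end of Sv2c at 3.91.

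Among the calcium sensors, the proteins that couple calcium entry to fusion, Syt4 stood out. Its product, synaptotagmin 4, lacks a residue that most synaptotagmins use to bind calcium, and the gene is known as an activity-induced one. Its KCl island (chromosome 18, 31443201 to 31449600) was 6400 bp wide, the widest at any member's end, and held 211 IP and 49 control reads, 2.70-fold [1.97 to 3.77]. It reaches past the upper-coordinate end of the gene, which is 9608 bp long. Syt1, the sensor of fast synchronous release, had a weaker island at its start (chromosome 10, 109009001 to 109012600), where 100 IP reads stood against 45, 1.40-fold [0.972 to 2.03], so its counting interval includes 1. At Syt3 the island (chromosome 7, 44382401 to 44383800) held 71 IP and 25 control reads, 1.78-fold [1.12 to 2.94], and it also lies at an end of 1700008O03Rik. At Doc2a, which encodes a high-affinity calcium sensor, the island (chromosome 7, 126846801 to 126850200) held 83 IP and 33 control reads, 1.58-fold [1.04 to 2.44], and is shared with an end of Ino80e. Syt9 had no island at an end and 1 inside the gene. The sensors Syt2, Syt5, Syt6, Syt7, Syt11 and Doc2b had none in either region.

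Of the vesicular glutamate transporter genes, Slc17a7 and Slc17a6 had an island at the start, and Slc17a8, which is outside the 48, had none at an end or in the body. Slc17a7, which encodes VGLUT1, had an island centred 2.12 kb before its start (chromosome 7, 45161001 to 45162600), where 68 IP reads stood against 17, 2.51-fold [1.46 to 4.56], and an end of Pih1d1 lies within 2 kb of it too. Slc17a6, which encodes VGLUT2, had a wider and weaker one over its start (chromosome 7, 51621201 to 51625600, 4400 bp), with 113 IP and 48 control reads, 1.48-fold [1.05 to 2.12]. The intervals of these folds overlap.

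The Sv2 genes encode vesicle glycoproteins, and their islands lay in different places. Sv2c had an island at each end. The far one (chromosome 13, 95960401 to 95961800) held 56 IP and 9 control reads, 3.91-fold [1.92 to 8.99], and the one at the start (chromosome 13, 96130601 to 96134200) 119 IP and 38 control reads, 1.97-fold [1.35 to 2.91]. Sv2a had an island at its far end only (chromosome 3, 96197001 to 96198400), 1.95-fold [1.13 to 3.53] with 56 IP and 18 control reads, and this island overlaps Bola1, the next gene. Sv2b had 5 islands inside the gene and none at its outer ends. Syn2, which encodes a synapsin that tethers vesicles to one another, had 52 IP reads against 13 in the island at its start (chromosome 6, 115134601 to 115136600), 2.51-fold [1.35 to 5.03]. Rab3c, a vesicle GTPase gene, had one with 105 IP and 36 control reads, 1.83-fold [1.24 to 2.75]. Syn3 and Rph3a, the rabphilin gene, had islands away from their ends. Syn1, Syp and Rab3a, whose products are among the most abundant vesicle proteins, had none in either region.

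In the SNARE group, the genes of the neuronal fusion complex were unevenly marked. Snap25 had an island (chromosome 2, 136712601 to 136715600) of 96 IP reads against 27, 2.23-fold [1.44 to 3.56]. Vamp2, the vesicle SNARE gene, had one (chromosome 11, 69088001 to 69089400) of 43 IP reads against 13, 2.08-fold [1.10 to 4.21], the lowest IP count of any member island at an end. A second island near Vamp2, in its flank, lies at an end of Per1, a clock gene (124 IP and 43 control reads, 1.81-fold [1.27 to 2.63]). Stx1a, which encodes their partner syntaxin 1A, had no island in either region, and Vamp1 had none. Cplx1 and Cplx2 encode complexins, small proteins that clamp the assembled SNAREs, and had islands at their starts, while the complexin genes Cplx3 and Cplx4, outside the 48, had none at an end or in the body. At Cplx1 (chromosome 5, 108548801 to 108551000) 66 IP reads stood against 18, 2.30-fold [1.35 to 4.12], and at Cplx2 (chromosome 13, 54301401 to 54304000) 88 against 27, 2.05-fold [1.32 to 3.28]. Stxbp5, the tomosyn gene, whose product holds back SNARE assembly, had a pair of islands side by side at its start, 1.59-fold [1.09 to 2.37] and 1.35-fold [0.886 to 2.09]. Of the genes that take SNAREs apart after fusion, Nsf had 2 islands inside the gene, 2.28-fold [1.29 to 4.24] and 2.20-fold [1.24 to 4.11], and Napb had none.

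Active zone genes combined islands at the start with islands along the body. Rims2, a scaffold gene of vesicle docking, had 110 IP and 29 control reads at an end (chromosome 15, 39196601 to 39200400), 2.38-fold [1.57 to 3.72]. Ppfia2, which encodes liprin-alpha-2, had 107 and 29 at its start (chromosome 10, 106469401 to 106472200), 2.32-fold [1.53 to 3.62]. Pclo, the gene of the giant scaffold piccolo, had 87 and 24 (chromosome 5, 14514601 to 14517400), 2.28-fold [1.44 to 3.74], while Bsn, the gene of its relative bassoon, had 58 and 23 (chromosome 9, 108189401 to 108191800), 1.58-fold [0.962 to 2.69]. The ELKS genes Erc1 and Erc2 had 85 and 31 reads and 56 and 18 reads, 1.72-fold [1.13 to 2.69] and 1.95-fold [1.13 to 3.53]. At Rims1 the start island was 1.59-fold [1.08 to 2.38]. Unc13a, the gene of the priming factor Munc13-1, had a wide island of 4000 bp (chromosome 8, 71668801 to 71672800), in which 123 IP reads stood against 43, 1.80-fold [1.26 to 2.61]. Unc13b and Unc13c had none at their outer ends but had islands inside, and Rims3 had none in either region.

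Among the endocytic genes, Snap91, which encodes the clathrin assembly protein AP180, had the strongest end island (chromosome 9, 86877801 to 86881600), with 117 IP reads against 30, 2.45-fold [1.63 to 3.79]. Sh3gl2, the endophilin A1 gene, had 63 and 21 (chromosome 4, 85205201 to 85207600), 1.88-fold [1.13 to 3.25]. Synj1, which encodes the lipid phosphatase synaptojanin 1, had 101 and 42 (chromosome 16, 91009001 to 91012800), 1.51-fold [1.04 to 2.22], at a place that is also an end of Paxbp1. Amph had 1 island inside the gene, and Dnm1, the gene of the neuronal dynamin that cuts vesicles free, had none in either region.

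Away from the ends, 22 of 48 members held an island, against 14.1% of all genes and 38.9% of genes in the same length classes, and they held 73 islands between them. Next to the islands at ends these were narrower, with a median of 1600 bp, and higher in fold, with a median of 2.63. The same medians were 1600 bp and 2.55 for all 7459 KCl islands inside genes. Most lay in a few long genes. The 7 members with at least 5 islands in the body or within 10 kb held 57 of the 106 islands of the list. Members over 100 kb had 1.05 inside islands per 100 kb of gene, and all genes over 100 kb had 0.977, so their density was near that of long genes at large.

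Ppfia2 had 15 islands, the most of any member, 14 of them away from its ends. Its body is 464.0 kb long, and 9.34% of the 557 genes over 300 kb had as many inside islands or more. The strongest, centred 216 kb from the start (chromosome 10, 106684201 to 106686200), held 137 IP and 15 control reads, 5.74-fold [3.36 to 10.5]. Erc2 had 10 islands, of which the strongest away from the ends lay 614 kb from the start (chromosome 14, 28235201 to 28236800), where 71 IP reads stood against 11, 4.05-fold [2.13 to 8.49]. Its density was 1.05 inside islands per 100 kb, against 3.02 in Ppfia2. Syt1 had 9 islands. Its start island was the weakest of them, and the strongest lay 270 kb inside (chromosome 10, 108740801 to 108741200), with 38 IP reads against 4, 5.97-fold [2.15 to 23.0]. Rims1 had 7 islands, with its strongest 330 kb inside (chromosome 1, 22476201 to 22476800) at 43 IP and 5 control reads, 5.40-fold [2.14 to 17.5]. Pclo and Syn3, at 349 kb and 450.2 kb, had 1 inside island each, and 93.4% of genes over 300 kb had at least as many.

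**Figure D3:**
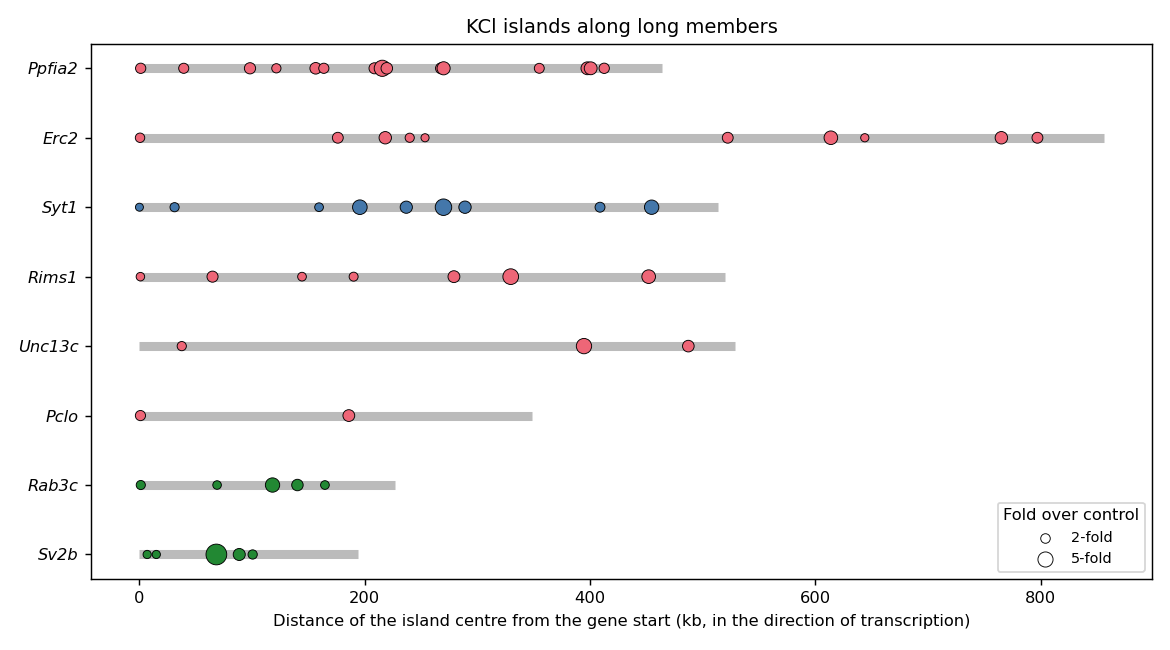
KCl islands along 8 members whose strand was used, drawn from the gene start in the direction of transcription (kb); grey bars are gene bodies and circle area is proportional to the fold over control. Ppfia2 carries islands along its whole body, while Pclo has 1 at the start and 1 inside and Unc13c has none at its outer start.

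The highest folds of the list came from narrow islands with few control reads. Chosen after their values were seen, these were an island of 600 bp inside Rims2 (chromosome 15, 39635801 to 39636400), with 51 IP reads against 3, 10.7-fold [3.45 to 53.5], one of 400 bp inside Sv2b (chromosome 7, 75240601 to 75241000) with 30 and 2, 9.42-fold [2.39 to 81.4], and one of 600 bp inside Syt9 (chromosome 7, 107504601 to 107505200) with 57 and 4, 8.95-fold [3.31 to 34.0]. With 2 to 4 control reads each, their folds are known less closely than those at gene ends.

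**Figure D4:**
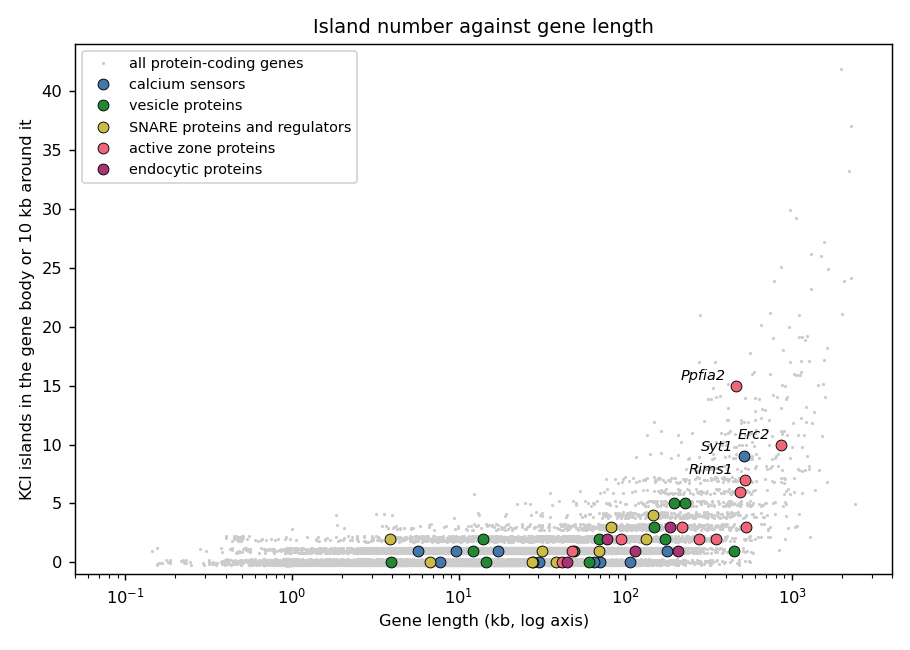
Number of KCl islands over the gene and its 10 kb flanks against gene length (log axis) for all protein-coding genes (grey, shifted slightly up or down so that they can be told apart) and the 48 members (coloured by role). Ppfia2 (15), Erc2 (10), Syt1 (9) and Rims1 (7) are the members with most islands, and they lie within the grey cloud of other long genes.

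The RefSeq promoter table (GRCm38.p6) held 39 of the 48 members, which gave their strand and 52 promoter windows, from 250 bases before an annotated start to 50 after it. A KCl island covered a window of 21 of these 39 genes, against 22.5% of the 17492 genes in the table. That share rose with gene length, to 28.7% from 20 to 100 kb, 42.1% from 100 to 300 kb and 48.2% over 300 kb. In these classes 6 of 14, 9 of 13 and 6 of 6 members were covered, and 0 of 6 up to 20 kb (14.4%). The active zone genes were covered in 9 of 10 cases, all but Rims3, and the calcium sensors in 1 of 6, namely Syt1. Active zone genes are at least 41.8 kb long, and length-class shares of windows were not worked out by role. Island centres at gene starts lay from 2.12 kb before the start to 3.59 kb into the gene, with a median of 0.736 kb into the gene, and 17 of 21 lay on the gene side. At Sv2b, Unc13b and Unc13c the outer start was free of islands and a window inside the gene was covered, so these genes were counted as lacking an island at an end. In Sv2b the covered windows were the 2 inner ones, with islands of 3.18-fold [1.84 to 5.83] and 1.49-fold [0.853 to 2.69], and the 2 outer ones were not covered. In Unc13b the island was 2.34-fold [1.18 to 5.05], and in Unc13c 1.86-fold [1.19 to 3.00].

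Across all protein-coding promoters, KCl islands went with CpG dinucleotides, counted in the 250 bases before the start. They covered 3.81% of windows with under 5 CpG, 15.2% of those with 5 to 9, 29% of those with 10 to 19 and 46% of those with 20 or more. Member windows were covered in 3 of 4, 6 of 16, 6 of 16 and 10 of 16 cases in the same order. The 52 member windows come from 39 genes, so windows of 1 gene can lie under the same island. The 3 CpG-poor member windows under an island were the inner ones of Sv2b and a second window of Slc17a6, 2 genes in all. Median GC content was 61.2% both in the 25 covered and in the 27 uncovered member windows, while over all promoters it was 64% and 53.2%.

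**Figure D5:**
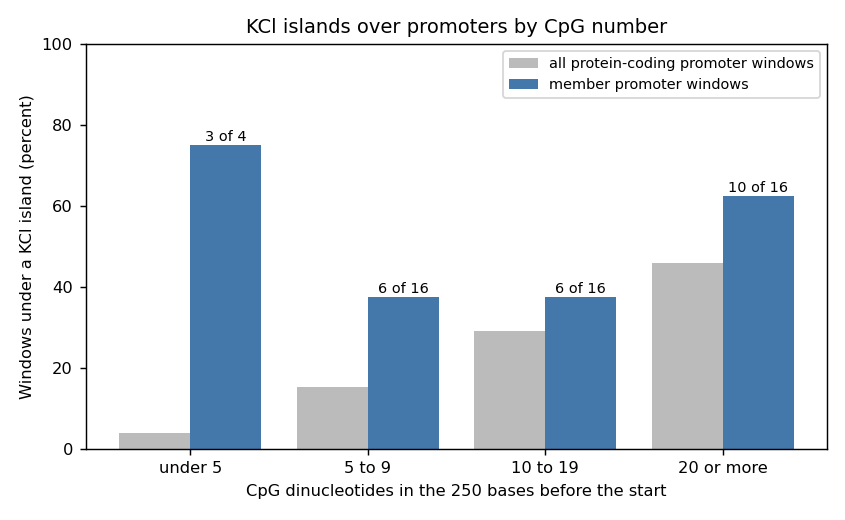
Percent of promoter windows under a KCl island, by the number of CpG dinucleotides in the 250 bases before the start, for all protein-coding genes (grey) and for the members (blue, with counts). Coverage of all promoters climbs from 3.81% to 46% across the classes, and the member windows show no such order (3 of 4, 6 of 16, 6 of 16 and 10 of 16).

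The covered promoter with the largest fold in each role shows how far these windows differ in base composition. Each sequence is the 250 bases before the annotated start, read 5′ to 3′ on the gene's own strand (RefSeq, GRCm38.p6). Capitals mark matches on either strand to GGGCGG, the GC box bound by Sp1 factors, or to TGACGTCA, the cyclic AMP response element (CRE) bound by CREB. Windows of Sv2b (chr7:75220020-75220269, minus strand), Snap91 (chr9:86880709-86880958, minus strand), Unc13b (chr4:43058703-43058952, plus strand), Cplx1 (chr5:108550028-108550277, minus strand) and Syt1 (chr10:109010976-109011225, minus strand) are given in this order.
Sv2b: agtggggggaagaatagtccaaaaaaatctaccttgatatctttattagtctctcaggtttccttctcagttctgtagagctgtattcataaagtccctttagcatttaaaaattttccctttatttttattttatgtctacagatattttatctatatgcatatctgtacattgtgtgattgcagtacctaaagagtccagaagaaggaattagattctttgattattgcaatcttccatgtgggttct
Snap91: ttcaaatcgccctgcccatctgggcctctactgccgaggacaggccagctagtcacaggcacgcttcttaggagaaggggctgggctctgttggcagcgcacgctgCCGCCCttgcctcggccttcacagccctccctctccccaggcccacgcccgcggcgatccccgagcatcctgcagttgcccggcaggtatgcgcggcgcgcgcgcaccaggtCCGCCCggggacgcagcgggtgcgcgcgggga
Unc13b: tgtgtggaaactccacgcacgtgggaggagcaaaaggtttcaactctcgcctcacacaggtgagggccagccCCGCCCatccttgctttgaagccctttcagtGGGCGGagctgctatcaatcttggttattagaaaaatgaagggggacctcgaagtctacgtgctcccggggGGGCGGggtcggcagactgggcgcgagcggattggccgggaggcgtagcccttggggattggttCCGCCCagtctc
Cplx1: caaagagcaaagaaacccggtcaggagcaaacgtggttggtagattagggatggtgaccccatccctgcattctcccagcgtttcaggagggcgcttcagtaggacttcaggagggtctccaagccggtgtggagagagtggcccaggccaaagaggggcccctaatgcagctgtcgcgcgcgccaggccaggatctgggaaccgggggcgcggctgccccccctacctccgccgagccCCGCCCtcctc
Syt1: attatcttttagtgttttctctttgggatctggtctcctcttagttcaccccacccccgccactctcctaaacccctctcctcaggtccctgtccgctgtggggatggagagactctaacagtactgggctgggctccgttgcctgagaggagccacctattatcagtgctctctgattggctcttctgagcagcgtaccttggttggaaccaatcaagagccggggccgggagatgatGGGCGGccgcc

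The Sv2b window has 0 CpG and a GC content of 32.8%, with no match to any motif searched, and the Snap91 window has 26 CpG, a GC content of 71.2% and 2 GC boxes. Unc13b has 4 GC boxes and 16 CpG, Cplx1 has 1 and 15, and Syt1 has 1 and 8. A GC box was found in 17 of 25 covered member windows and 15 of 27 uncovered ones, against 66.1% of all covered and 35.9% of all uncovered promoters. The CRE was found in 2 of the 52 member windows, against 1.92% of all promoters. It stands in the covered promoter of Sh3gl2 (chr4:85205206-85205455, plus strand), directly after a GC box, and in the uncovered promoter of Syn1 (chrX:20920919-20921168, minus strand). Both are shown because they carry the same motif and differ in island status.
Sh3gl2: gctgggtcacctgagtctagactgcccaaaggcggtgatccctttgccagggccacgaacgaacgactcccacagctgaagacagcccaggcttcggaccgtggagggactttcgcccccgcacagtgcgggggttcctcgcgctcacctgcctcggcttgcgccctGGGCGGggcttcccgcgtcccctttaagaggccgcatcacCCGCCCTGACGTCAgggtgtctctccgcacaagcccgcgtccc
Syn1: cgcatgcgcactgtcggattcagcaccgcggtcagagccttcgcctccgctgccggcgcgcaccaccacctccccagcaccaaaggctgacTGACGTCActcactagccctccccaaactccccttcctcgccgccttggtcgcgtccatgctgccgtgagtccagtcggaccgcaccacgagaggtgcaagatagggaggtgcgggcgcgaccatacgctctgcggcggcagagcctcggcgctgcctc

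The AP-1 motif TGANTCA, bound by Fos and Jun proteins, was found in 3 member windows (5.77%), of Erc2, Syt2 and Rph3a, and in 6.13% of all promoters. Of these 3 genes only Erc2 had an island over the window that holds the match. The core of RE1, the element bound by the neuronal gene repressor REST and searched on both strands, was found in 0 member windows and 9 of 21263 promoters. These searches describe letters in a short window and not binding.

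Members without an island in either region numbered 14 and came from all roles. They were Syt2, Syt5, Syt6, Syt7, Syt11, Doc2b, Syn1, Syp, Rab3a, Stx1a, Vamp1, Napb, Rims3 and Dnm1. With flanks of 50 kb, 9 of these 14 had a KCl island and 5 did not, the latter being Syt2, Syt5, Syt6, Syt7 and Syp. Over all members the count was then 43 of 48, against 59.4% of all genes. That share includes genes with an island within 10 kb, so it is not a measure for the 14. Syn1 and Syp are the only X-linked members. On chromosome X, 30 of 966 protein-coding genes (3.11%) had a KCl island at an end, so a missing call there was the rule for the whole chromosome. Whether this bears on Syn1 and Syp was not tested.

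A further 86 genes of the same machinery, listed by the same roles, gave similar shares for the list as a whole, though not for every role. This list too was drawn up with earlier results of these data known, so it is not an independent check. At gene ends 43 of 86 had a KCl island (50%), against 30.2% of all genes in the same length classes. In the body or within 10 kb 54 of 86 did (62.8%), against 38.9% of all genes and 48.2% in the same length classes. The active zone genes of this list had an island at an end in 10 of 14 cases and the endocytic genes in 14 of 22. Among these active zone genes, Ppfia3 and Lin7b share the same island. The vesicle genes had an end island in 10 of 19 cases, the calcium sensors in 5 of 11 and the SNARE genes in 4 of 20. Of all genes, 25.2% had one. The SNARE count is under the 26.7% of all genes in their length classes, a share not worked out for the other roles of this list. The largest folds at an end were those of Rimbp2, which encodes a binding partner of RIM proteins (43 IP and 7 control reads, 3.86-fold [1.72 to 10.2]), and Syt10 (49 and 8, 3.85-fold [1.81 to 9.41]). They were followed by Snap29, a SNARE gene (3.60-fold [2.07 to 6.71]), Syt14 (3.31-fold [1.72 to 7.0]) and Cltb, a clathrin light chain gene (2.98-fold [1.58 to 6.11]).

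No member had a basal island within 10 kb, and the median distance from a member to the nearest basal island was 1789 kb. Doc2a was the 1 member with a basal island within 50 kb, where 2.94% of all genes had one. It lay 28.9 kb away (chromosome 7, 126881601 to 126884200), with 52 IP reads against 38, 1.56-fold [1.00 to 2.43]. The KCl list is far longer than the basal one, and this difference in length goes with the counts. When only the 711 KCl islands with the smallest p-values of the authors were kept, 1 of 48 members, Syt4, had an island at an end, and 0.114% of all genes did. In the body or within 10 kb 5 members had one, namely Syt4, Syt9, Rims2, Unc13c and Ppfia2, against 1.51% of all genes. Keeping the 711 with the largest fold left 0 members at an end (0.0731% of all genes) and 3 in the body or within 10 kb (1.45%), namely Syt9, Sv2b and Rims2. Of the members named for the shortened lists, all but Syt4 are over 100 kb long. Shares by length class were not worked out for these lists. Whether the missing basal calls reflect less occupancy or a less enriched library cannot be told apart with 1 library per condition.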

How the data were processed

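BRG1/BRM ChIP-seq was available for cultured mouse cortical neurons in 4 samples: 1 IP and 1 input library for each of the basal and KCl groups, which were taken from the sample titles. The submitters' processing notes name BWA (version not given in the sources used here), SICER 1.0 for the islands, and the build mm10, which is GRCm38. From the names of the deposited lists, SICER ran with 200 bp windows, gaps up to 600 bp and FDR 0.01. Islands were called per IP library, not on pooled samples, and the labels do not say which input was the control. For each island the authors deposited the IP read count and the control read count, not normalized, a p-value with its FDR, and the fold. That fold is the ratio of both counts divided by a constant per library, 0.880 for basal and 1.59 for KCl. Separate input files were not used here.

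Positions were made 1-based. An island was assigned to a gene when at least 1 bp lay within 2 kb of either gene end, or in the body and 10 kb around it. Strand was known only for genes in the promoter table. In that table all 1677 overlapping windows from opposite strands were reverse complements. Length classes were split at 20, 100 and 300 kb. Intervals are 95% exact (Clopper-Pearson) for the IP share of reads, divided by the constant, and without molecular identifiers they cover counting error only. No test between conditions or for a list was possible. Counts stand beside the same share over all protein-coding genes, which took the place of a comparison list. Code (Python 3.11.15, pandas 2.3.3, scipy 1.17.1) was tested on simulated data.

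The members and gene lists were chosen with earlier results of these data known. Full values were given for up to 4 members per role with the largest KCl fold at an end, the 4 with most KCl islands, those with the widest end islands, and 5 further release genes; Unc13b, Unc13c, Nsf and others were added after their values were seen. Alternatives varied the window, flank, threshold, overlap rule, strand and list length.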

Additional observations from a re-analysis of the deposited data

How the results depend on the processing

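Of 92 alternatives over 11 counts, 63 stayed within 1.5 times the main count and 29 did not. The tally compares counts and not shares, so a stricter rule or fewer usable genes can lower a count by itself. Among the 29 are the calcium sensors at gene starts, 2 of 6, where the main count was 4 of 11. The basal counts were 0, and narrower or stricter settings could only give 0 again, so part of the 63 was fixed in advance. Requiring a fold of at least 2 left 12 of 48 members at gene ends (8.74% of all genes): 1 calcium sensor, 3 vesicle, 4 SNARE, 3 active zone and 1 endocytic gene; the other release genes then numbered 18 at ends and 33 in bodies. An FDR of at most 1e-05 left 20 members at ends (15.1% of all genes), and 2 calcium sensors instead of 4. Counting gene starts only, where the strand was used, gave 20 of 39 members, 2 of 6 calcium sensors and 3 of 7 SNARE genes. Of all genes with a strand, 22.7% had an island there. Syt4, Doc2a, Snap25 and Vamp2 could not count, because they had no strand here. With the KCl list shortened to 711 islands by p, 1 member, a calcium sensor, had an island at an end (0.114% of all genes). The vesicle, SNARE, active zone, endocytic and other release genes had 0. In the body or within 10 kb, 5 members and 0 other release genes had one (1.51% of all genes). Shortened by fold, the counts at ends were 0 for all members, each role and the other release genes (0.0731% of all genes). In the body or within 10 kb, 3 members and 3 other release genes had one (1.45% of all genes). Members with a basal island went from 0 to 1 with 50 kb flanks (2.94% of all genes). The causes were not tested, except that shortened lists hold fewer islands. Role counts rest on 5 to 12 genes, and the highest folds rest on few control reads. No paired analysis was possible because each condition has 1 library and the counts come from no test.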
